A study of Mus musculus with 6 samples.

Results

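Small nucleolar RNAs (snoRNAs) and small Cajal body RNAs (scaRNAs) were read out of the RNA sequencing of mouse cortex after stroke. The members were taken by name: every gene symbol that starts with Snord, Snora or Scarna and a digit, with a total of at least 6 counts over the 6 libraries. Of 119 such symbols in the table, 87 met this minimum, 18 stood at 0 and 14 had between 1 and 5 counts, in a table of 24553 genes and unmatched rows. Just inside the minimum lay Snord88c with 6 counts and Snora35 and Snord92 with 7 each, and just outside it Snora69 and Snord43 with 5 each. The 87 members were 47 box C/D snoRNAs, 31 H/ACA snoRNAs and 9 scaRNAs.

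The cortex came from male C57BL/6J mice at an age of 15 weeks, 14 days after stroke. All of them drank water with Metronidazol, Neomycin, Ampicillin and Vancomycin and 5% sucrose. In the SCFA group, 3 mice were also offered short-chain fatty acids, the products of fibre fermentation by gut bacteria. The control group of 3 mice was offered water matched for salt. Both waters were given for 4 weeks and were started when the mice were 6 to 8 weeks old. The labels do not say which hemisphere was taken or how far from the lesion.

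SnoRNAs are short noncoding RNAs that sit in ribonucleoprotein particles and guide chemical marks onto other RNAs by base pairing. Box C/D RNAs guide ribose methylation through the enzyme fibrillarin, and H/ACA RNAs guide the change of uridine to pseudouridine through dyskerin, for the most part on ribosomal RNA in the nucleolus. ScaRNAs carry either kind of structure, or both, and act on spliceosomal RNAs in Cajal bodies. In mammals most are cut out of introns of other genes.

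The sequences of the C/D RNAs with the most counts are printed first, because their boxes are visible in the letters. All sequences shown were taken from GENCODE M21 transcripts of the mouse build GRCm38. The RNA is written as DNA, 5′ to 3′ on the strand of the gene. In the C/D RNAs the capitals mark box C (TGATGA) within the first 20 bases and box D (CTGA) within the last 15. Snord17 lies at chr2:144265979-144266216 in an intron of Snx5, on the minus strand. Snord15b and Snord15a lie at chr7:99479563-99479707 and chr7:99482785-99482932 within Rps3, also on the minus strand. Snord64 lies at chr7:59978808-59978874, on the minus strand in the imprinted Prader-Willi region.
Snord17: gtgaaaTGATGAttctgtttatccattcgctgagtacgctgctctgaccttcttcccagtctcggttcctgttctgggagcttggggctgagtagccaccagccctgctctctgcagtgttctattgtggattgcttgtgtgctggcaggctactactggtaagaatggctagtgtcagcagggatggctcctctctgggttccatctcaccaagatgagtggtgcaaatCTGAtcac
Snord15b: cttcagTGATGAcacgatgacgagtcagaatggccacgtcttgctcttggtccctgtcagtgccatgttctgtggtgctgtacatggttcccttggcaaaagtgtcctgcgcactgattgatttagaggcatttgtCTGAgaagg
Snord15a: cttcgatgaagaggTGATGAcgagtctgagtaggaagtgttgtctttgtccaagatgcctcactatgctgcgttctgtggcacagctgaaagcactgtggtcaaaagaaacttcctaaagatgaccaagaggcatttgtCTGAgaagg
Snord64: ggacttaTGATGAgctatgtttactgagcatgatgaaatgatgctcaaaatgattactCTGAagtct
Snord15a and Snord15b, which bear the same number, were identical over 66.0% of their aligned columns.

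The H/ACA RNA with the smallest p and the scaRNA with the most counts share the ACA triplet that stands 3 bases from the 3′ end, in capitals. Snora74a and Snora81, the H/ACA members with the most counts, had no ACA at that position and are not printed. Snora31 lies at chr14:75847905-75848034 on the plus strand, in an intron of Tpt1. Scarna13, a guide for spliceosomal RNA, lies at chr12:105031075-105031349 on the minus strand, in an intron of the noncoding gene Snhg10.
Snora31: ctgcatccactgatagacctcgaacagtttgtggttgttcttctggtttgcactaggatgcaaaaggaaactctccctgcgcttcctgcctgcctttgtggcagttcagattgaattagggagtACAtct
Scarna13: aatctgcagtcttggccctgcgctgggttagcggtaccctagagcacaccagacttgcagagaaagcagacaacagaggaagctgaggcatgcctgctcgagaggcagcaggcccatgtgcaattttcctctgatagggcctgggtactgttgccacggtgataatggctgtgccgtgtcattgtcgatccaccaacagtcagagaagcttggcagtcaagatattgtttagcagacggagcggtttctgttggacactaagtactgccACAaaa

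For another pair of abundant scaRNAs the row in the table covers only a stretch near the 3′ end, which decides how their level per length reads. The last 120 bases of each are printed, from position 295 in Scarna2 and from position 206 in Scarna10. The capitals mark the stretch covered by the RefSeq entry, positions 350 to 410 of 414 bases in Scarna2 and positions 253 to 323 of 325 in Scarna10. Scarna2, a methylation guide of the U2 spliceosomal RNA, lies at chr3:108554338-108554751 on the minus strand. Scarna10, which carries both box types, lies at chr6:125186359-125186683 on the minus strand, within Ncapd2.
Scarna2: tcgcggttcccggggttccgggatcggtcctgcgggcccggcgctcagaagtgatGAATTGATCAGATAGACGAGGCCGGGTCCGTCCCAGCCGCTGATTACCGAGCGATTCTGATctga
Scarna10: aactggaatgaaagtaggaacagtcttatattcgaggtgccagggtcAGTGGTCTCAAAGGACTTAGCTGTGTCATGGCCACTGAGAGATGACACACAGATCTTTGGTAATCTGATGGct

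Searched over the 86 members with a GENCODE sequence (all but Snord73b), on the transcribed strand only, the boxes separated the classes in part. Box C in its window was found in 30 of 46 C/D members and box D in 42, and 28 (60.9%) had both. None of the 31 H/ACA members had box C there and 2 had box D, while ACA stood 3 bases from the end in 24 (77.4%) of them and in none of the C/D members. Of the 9 scaRNAs, 4 had both C/D boxes and 2 had the ACA end. Among the 23514 other transcripts of 40 to 450 bases, 0.102% had both boxes and 1.78% had the ACA end. A match is a description of these letters, and members without one may hold a variant that was not searched.

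Few RNAs held most of the signal. The 87 members had 27252 counts in all, of which the 9 scaRNAs held 51.9%, the 47 C/D members 33.9% and the 31 H/ACA members 14.2%. Scarna13 alone held 24.9%, and Scarna13, Scarna2 and Snord17 together 51.4%. Within the C/D class, Snord17, Snord15b and Snord15a made up 77.3% of the counts. Snora74a, a guide for ribosomal RNA, made up 30.8% of the H/ACA counts. At the other end, 36 members had fewer than 30 counts over the 6 libraries, and only 29 had counts in every library.

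The plot of counts against length shows that members with long rows held much of the signal. The 9 members with a RefSeq row of at least 140 bases held 60.9% of the counts, and the 78 shorter ones 39.1%. The median total was 1190 counts for the former and 36 for the latter. Across the 87 members Spearman's rho between total and RefSeq length was 0.34, and it was 0.22 within C/D, 0.37 within H/ACA and 0.05 within scaRNAs. On the GENCODE length instead, 13 members had at least 140 bases, among them Scarna2 and Scarna10, and held 84.3% of the counts. These are descriptions across genes of the same libraries. How the RNA columns and the library kit recover short RNAs was not tested.

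**Figure D1:**
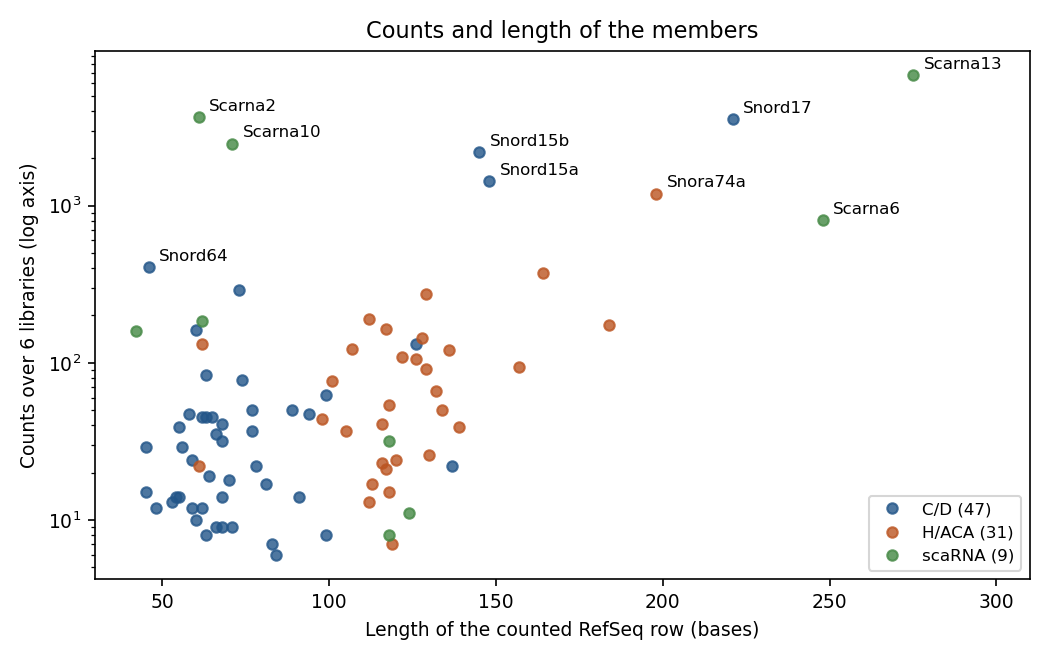
Counts over the 6 libraries (log axis) against the length of the counted RefSeq row in bases, 1 point per member, coloured by class. Scarna2 and Scarna10 stand high at 61 and 71 bases, and most C/D members lie at the lower left.

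Levels of single members were compared per length, as CPM (read counts relative to the size of the library, here the total count times its TMM factor) divided by the length in kilobases. The shares of counts held by members and classes are not divided by length. The median RefSeq row was 68 bases for C/D members and 119 for H/ACA members. On the RefSeq length, Scarna2 led with 918 CPM per kilobase, before Scarna10 with 542, Scarna13 with 369, Snord17 with 240.0 and Snord15b with 224. On the GENCODE length the order changed: Scarna13 stayed at 369 and Snord15b at 224, Snord17 came to 223, Snord15a to 148 and Scarna2 to 135. The reads of Scarna2 and Scarna10 were assigned to rows of 61 and 71 bases, so the true divisor is uncertain and the order of these members depends on it. Of the 86 members compared, 73 had a RefSeq row shorter than the GENCODE transcript, 8 an equal one and 5 a longer one, and in 4 (Scarna2, Scarna10, Snora61 and Snora20) it was under 50% of the transcript.

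The libraries differed in ways that touch these RNAs. Total counts ran from 9275252 to 13862756, and 1 row without a gene symbol took 35.0% to 55.3% of each library. That share was highest in control 2, which also had counts in the fewest symbols, 13013 against 14948 to 15694 in the others. The 3 controls had 17, 35 and 22 members at 0, in replicate order, and the SCFA libraries had 20, 29 and 13. A count of 0 in a library allows a level of up to 3 counts, or 0.206 to 0.346 CPM, and this limit covers counting error only. All 8 markers of cortical neurons were tested, and their summed level ran from 1296 to 1624 CPM. SCFA 2 stood apart in the striatal markers Penk, at 130.3 CPM against 23.8 to 29.1 elsewhere, and Ppp1r1b, at 47.4 against 8.61 to 14.4, while Drd1 stood at 0.756 CPM there and at 0 to 1.15 elsewhere.

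C/D members together stood at 93.3, 172 and 160.1 CPM in the controls, in replicate order, and at 151, 105 and 150.4 CPM with SCFA. H/ACA members stood at 36.6, 104 and 64.0 CPM in controls and at 58.4, 29.0 and 66.0 CPM with SCFA. ScaRNAs stood at 238, 228 and 262 CPM in controls and at 250.0, 101 and 204 CPM with SCFA. In each class the groups overlapped, and SCFA 2 was the lowest library for H/ACA members and scaRNAs. The group means were 142 ± 42.4 against 136 ± 26.2 CPM for C/D, 68.2 ± 33.9 against 51.1 ± 19.5 for H/ACA and 243 ± 17.8 against 185 ± 76.0 for scaRNAs, control against SCFA (SD, n = 3 each). Each difference of means was smaller than the larger of the SDs. The log2 ratio of the scaRNA means was −0.39, and it was −0.10 without SCFA 2 and −0.67 without SCFA 1. For H/ACA members it was −0.42, and 0.02 without control 2. In bulk tissue, fewer cells of a type and less RNA per cell cannot be told apart.

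Set against each other, C/D members held more counts in sum than H/ACA members in all 6 libraries. Snord17, Snord15b and Snord15a made up 77.3% of the C/D counts over all libraries. The median total per member was lower for C/D, at 29 counts, than for H/ACA, at 66. The share of C/D members in the C/D and H/ACA counts was 71.8% (exact Clopper-Pearson 95% interval 69.6 to 74.0), 62.3% (60.3 to 64.2) and 71.4% (69.5 to 73.3) in the controls. It was 72.1% (70.1 to 74.1), 78.4% (76.5 to 80.2) and 69.5% (67.8 to 71.2) with SCFA. The intervals cover counting error only. Control 2 lay below and SCFA 2 above the 4 other libraries, which spanned 69.5% to 72.1%. The group means were 68.5% ± 5.40 and 73.3% ± 4.58 (SD, n = 3 each), a difference of 4.80 percentage points that was smaller than the spread in the controls. Without control 2 it was 1.69 points, without SCFA 2 it was 2.27 points, and between the group medians it was 0.66 points.

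Fewer H/ACA members and fewer C/D members carried the counts in control 2. There 18 of 31 H/ACA members had any counts, with a mean of 50.2 counts each. In the other libraries 21 to 28 had counts and the mean was 16.1 to 32.9. Of the 47 C/D members, 27 had counts in control 2 and 29 to 40 in the others. For them the same mean was 55.3 in control 2 and 33.9 to 52.8 in the others. Of the 33 members with enough counts to be tested, 16 (48.5%) had their highest CPM in control 2, against 24.9% of all genes tested.

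The H/ACA level and the share of the largest row put the libraries in the same order. From high to low, both ran control 2, SCFA 3, control 3, SCFA 1, control 1, SCFA 2. The row took 55.3%, 46.3%, 44.5%, 42.2%, 37.7% and 35.0% of the counts in that order. On total counts with no TMM factor, H/ACA members stood at 79.2, 64.0, 61.5, 60.3, 41.1 and 35.3 CPM, in the same order of libraries. Rmrp, the RNA of the RNase MRP particle and not a snoRNA by name, stood at 2071, 1243, 1325, 1205, 871 and 557 CPM, which swaps SCFA 3 and control 3. The levels of scaRNAs and C/D members did not keep that order, nor did those of the structural RNAs Rpph1, Rnu12 and Rnu11. Taking the libraries in that order, Rpph1 stood at 6111, 5994, 7397, 10434, 8302 and 2911 CPM. Rnu12 stood at 537, 386, 278, 477, 114 and 153 CPM, and Rnu11 at 13.1, 15.5, 21.4, 22.7, 19.2 and 6.19 CPM. This order was noticed after the values were seen, the row has no gene name here, and its part in the H/ACA level was not tested.

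**Figure D2:**
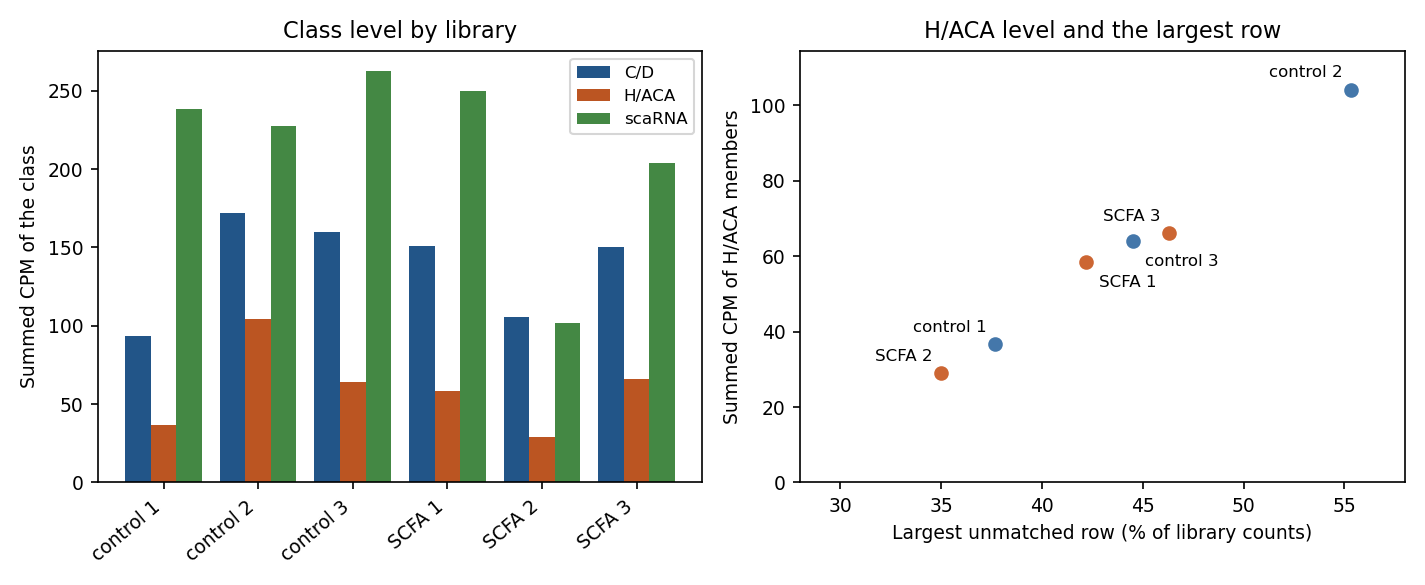
Left, summed CPM of C/D, H/ACA and scaRNA members in each library (bars from 0). Right, the summed H/ACA CPM against the share of counts in the largest unmatched row, 1 point per library; H/ACA rises from 29.0 CPM in SCFA 2 at a share of 35.0% to 104 CPM in control 2 at 55.3%.

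In the test across genes with edgeR's quasi-likelihood test, 33 of the 87 members had enough counts: 10 C/D, 17 H/ACA and 6 scaRNAs. None passed an adjusted p of 0.05 in either direction, with Benjamini-Hochberg adjustment over 11969 genes, where the share called was 0.0835% (0.00835% higher and 0.0752% lower). At an unadjusted p under 0.05 there was 1 member, Snora31, where the share over all genes tested was 5.76%. DESeq2 and limma-voom also called 0 members, each with 1 at an unadjusted p under 0.05. Control and SCFA libraries did not overlap in 2 of the 33 members, Snora31 and Snord8, both lower with SCFA, where 12.2% of all genes tested did not overlap (6.42% higher and 5.74% lower).

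The median log2 fold change (SCFA minus control) was −0.02 for the C/D members tested, with 5 above and 5 below 0. It was −0.42 for the H/ACA members, with 4 above and 13 below 0, and −0.42 for the scaRNAs, with 2 above and 4 below. Over all genes tested it was 0.01, with 49.1% below 0. The H/ACA median was 0.05 without control 2 and −0.04 without control 2 and SCFA 2. With total counts in place of TMM the C/D median was 0.20 and the H/ACA median −0.29, while the median of all genes moved from 0.01 to 0.18. The 54 members that were not tested enter none of these medians. With no low-count filter the H/ACA median over all 31 members was −0.20, and with limma-voom it was −0.19 over those tested.

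**Figure D3:**
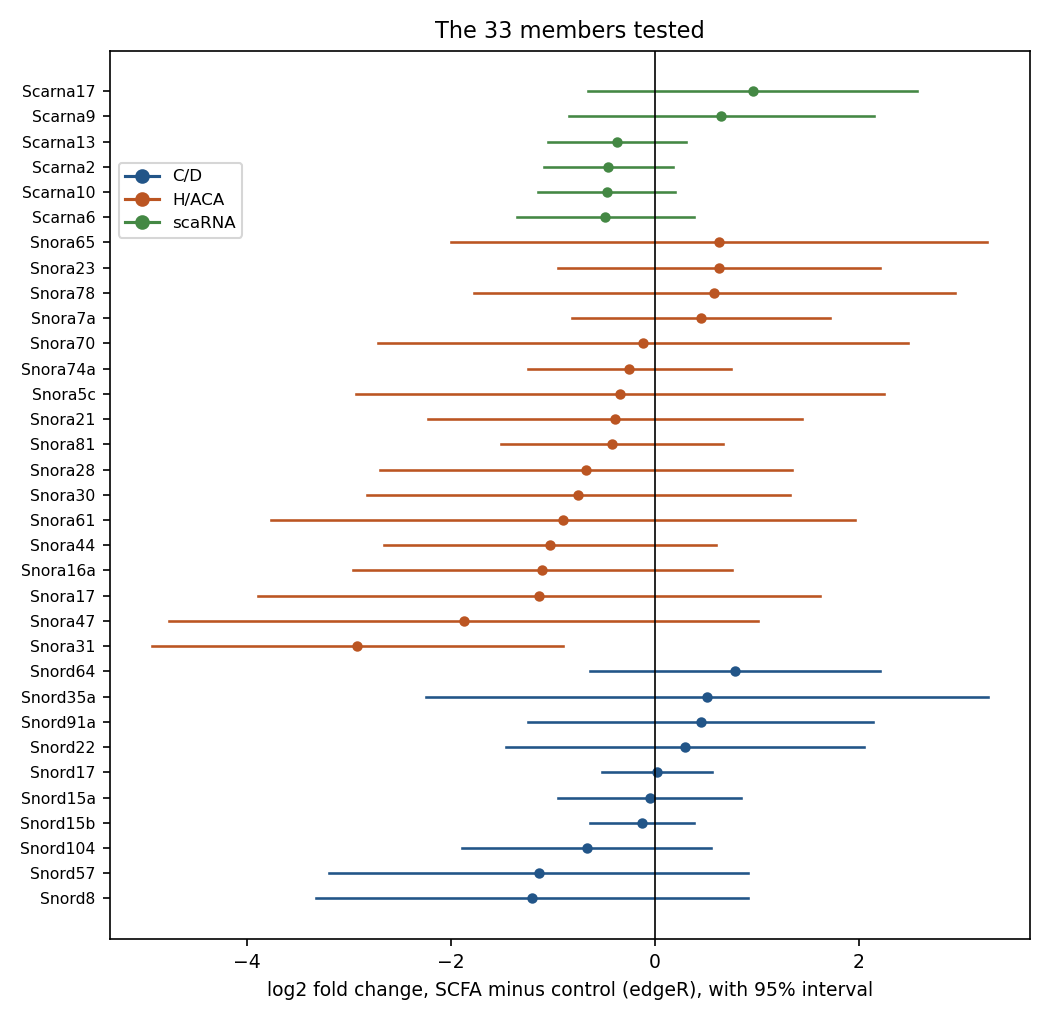
Log2 fold change (SCFA minus control) of each of the 33 members tested, with its 95% interval from edgeR, coloured by class and ordered within it. The intervals of 32 members contain 0, and that of Snora31 runs from −4.93 to −0.91.

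Among the C/D members, the ribosomal RNA guide Snord17 stood at 31.2, 66.2 and 60.8 CPM in controls and at 58.7, 44.0 and 57.4 CPM with SCFA. The groups overlapped, with control 1 lowest. Its log2 fold change was 0.02 (SE 0.25, 95% interval −0.52 to 0.56, edgeR adjusted p = 0.996), so a change of the size of 1 log2 unit lies outside the interval. Snord15b, another such guide, stood at 26.1, 31.8 and 43.7 CPM in controls and at 34.0, 25.4 and 33.6 CPM with SCFA. Its log2 fold change was −0.13 (SE 0.23, interval −0.63 to 0.38).

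Snord15a, in the same host gene as Snord15b, varied more from mouse to mouse. It stood at 11.5, 32.3 and 23.2 CPM in controls and at 26.8, 9.14 and 28.5 CPM with SCFA, with a log2 fold change of −0.05 (SE 0.42). Control 1 and SCFA 2 were the low libraries. The host Rps3, a ribosomal protein gene, ran from 121 CPM in SCFA 2 to 181 CPM in SCFA 1, with a log2 fold change of −0.10 (SE 0.16).

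Snord64, a brain C/D RNA with no known target in ribosomal RNA, had 75, 4 and 62 counts in controls and 98, 89 and 78 with SCFA. Control 2 alone was low, at 0.46 CPM against 5.81 to 10.2 CPM in the other 5 libraries. Its log2 fold change was 0.78 (SE 0.66, edgeR adjusted p = 0.914), and 0.26 without control 2. Other transcripts of the region were looked up after these values were seen. Ipw, a noncoding RNA of the paternal allele, had 681, 360 and 467 counts in controls and 605, 845 and 723 with SCFA, with a log2 fold change of 0.29 (SE 0.18). In CPM, Ipw and Ndn were lowest in control 2, at 41.5 and 28.1, while Snrpn was lowest in control 1, at 0.971 (1.04 in control 2), and Ube3a in SCFA 2, at 4.19 (7.26 in control 2). Snurf stood at 0 in all libraries. Of the Snord116 family, Snord116l1 and Snord116l2 were in the table, both at 0 in all libraries. How reads shared by overlapping genes or near-identical copies were handled was not given. A count of 0 here therefore need not mean absent RNA, and the low Snrpn counts are uncertain as levels.

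Among snoRNAs known for cutting and folding the ribosomal precursor, Snord22 was the only one tested. It had 12, 18 and 21 counts in controls and 20, 48 and 12 with SCFA, with a log2 fold change of 0.29 (SE 0.81). Snord118, which acts in the maturation of the large subunit RNA, had 9, 0 and 4 counts in controls and 8, 0 and 1 with SCFA, too few for the test. Snord14a, Snord14c and Snord14d stood at 0 in all libraries. Of 5 U3 gene symbols looked up outside the naming pattern, 0 were in the table, so U3 is not analysed here.

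Of the other C/D members, Snord104 was highest in control 2, with 10.3 CPM against 2.68 to 3.97 elsewhere, and its log2 fold change was −0.67 (SE 0.57). Snord8 stood at 1.30, 1.50 and 1.20 CPM in controls and at 0.627, 0.275 and 0.819 CPM with SCFA. The groups did not overlap, but these are 12 to 16 counts against 4 to 11, and its log2 fold change of −1.20 (SE 0.98) had an edgeR adjusted p of 0.910. Snord57, Snord91a and Snord35a had log2 fold changes of −1.14, 0.45 and 0.51, with SEs of 0.95, 0.78 and 1.28. Snord87 and Snord83b, with 78 and 50 counts in all, did not pass the filter; 58 of the counts of Snord87 came from control 2.

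Among the H/ACA members, Snora31 had the smallest p of the 33 tested. It had 19, 125 and 18 counts in controls and 8, 17 and 4 with SCFA, or 1.54, 14.4 and 1.8 CPM against 0.836, 1.17 and 0.298 CPM. All 3 SCFA libraries were below the controls, and control 2 stood far above every other library. The log2 fold change was −2.92 (SE 0.93, edgeR adjusted p = 0.864), and −1.11 (adjusted p = 0.931) without control 2. Over the alternatives run, its adjusted p was at its lowest, 0.0532, with no low-count filter. Tpt1, which holds it in an intron, had a log2 fold change of −0.03 (SE 0.17), and in control 2 it stood at 98.3 CPM, within its range of 92.7 to 130.0 CPM.

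Snora74a, the H/ACA member with the most counts, stood at 7.93, 29.9 and 22.5 CPM in controls and at 20.6, 7.22 and 22.8 CPM with SCFA. Control 1 and SCFA 2 were both far below the other 4 libraries, so that the spread within each group exceeded the difference between them. Its log2 fold change was −0.25 (SE 0.46, interval −1.25 to 0.75). Snora81 stood at 5.18, 11.3 and 3.40 CPM against 6.48, 4.19 and 4.17 CPM, with a log2 fold change of −0.42 (SE 0.50).

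Snora7a, in the ribosomal protein gene Rpl32, stood at 3.24, 3.23 and 3.80 CPM in controls and at 6.16, 1.65 and 6.25 CPM with SCFA. SCFA 2 was the lowest of all 6 libraries and the other SCFA libraries the highest, and its log2 fold change was 0.45 (SE 0.59). Snora23, in Ipo7, ran from 1.21 to 5.14 CPM and had a log2 fold change of 0.62 (SE 0.73). Snora47 had 0, 61 and 16 counts in controls and 11, 16 and 1 with SCFA, with a log2 fold change of −1.88 (SE 1.34).

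Snora44, Snora61 and Snora16a lie in the same noncoding host, Snhg12, as does the C/D member Snord99. Snora44 had a log2 fold change of −1.03 (SE 0.75), Snora61 of −0.90 (SE 1.33) and Snora16a of −1.11 (SE 0.86), beside −0.34 (SE 0.27) for Snhg12. These 3 were highest in control 2, with 51, 72 and 36 counts, and Snhg12 stood there at 31.9 CPM against 16.2 to 22.8 elsewhere. Snord99, too low for the test, had 0 counts in control 2, and 3, 0 and 7 counts in controls against 5, 10 and 4 with SCFA. Snora21, Snora30 and Snora28 had log2 fold changes of −0.39, −0.75 and −0.68, with SEs of 0.85, 0.96 and 0.94.

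Among the scaRNAs, Scarna13 stood at 127, 67.3 and 149 CPM in controls and at 120.03, 47.5 and 98.0 CPM with SCFA. Control 2 and SCFA 2 were the lowest libraries, 1 in each group. Its log2 fold change was −0.37 (SE 0.31, interval −1.05 to 0.30). Scarna2 stood at 65.1, 68.1 and 61.0 CPM in controls and at 68.6, 23.0 and 50.02 CPM with SCFA. SCFA 1 was the highest library of all, and its log2 fold change was −0.46 (SE 0.29, edgeR adjusted p = 0.892).

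Scarna10 stood at 32.5, 66.2 and 35.4 CPM against 43.9, 19.8 and 33.1 CPM, with a log2 fold change of −0.47 (SE 0.31). Scarna6 stood at 8.50, 21.3 and 14.0 CPM against 12.6, 5.50 and 13.1 CPM, with a log2 fold change of −0.49 (SE 0.40). In both, control 2 was the highest library and SCFA 2 the lowest. Scarna17 and Scarna9 lay on the other side, at 0.96 (SE 0.75) and 0.65 (SE 0.70). Scarna17 was highest in SCFA 2 and SCFA 3, with 47 and 73 counts against 11 to 26 in the other 4 libraries.

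Of the 8 members with the most counts, 6 had control 1 and SCFA 2 as their lowest libraries: Snord17, Scarna10, Snord15b, Snord15a, Snora74a and Scarna6. Over the 33 members tested it was 10 (30.3%), and over all genes tested 4.95%. In these 2 libraries the largest row took its smallest shares, 37.7% and 35.0%. This pattern was also noticed after the values were seen, and its source was not tested.

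**Figure D4:**
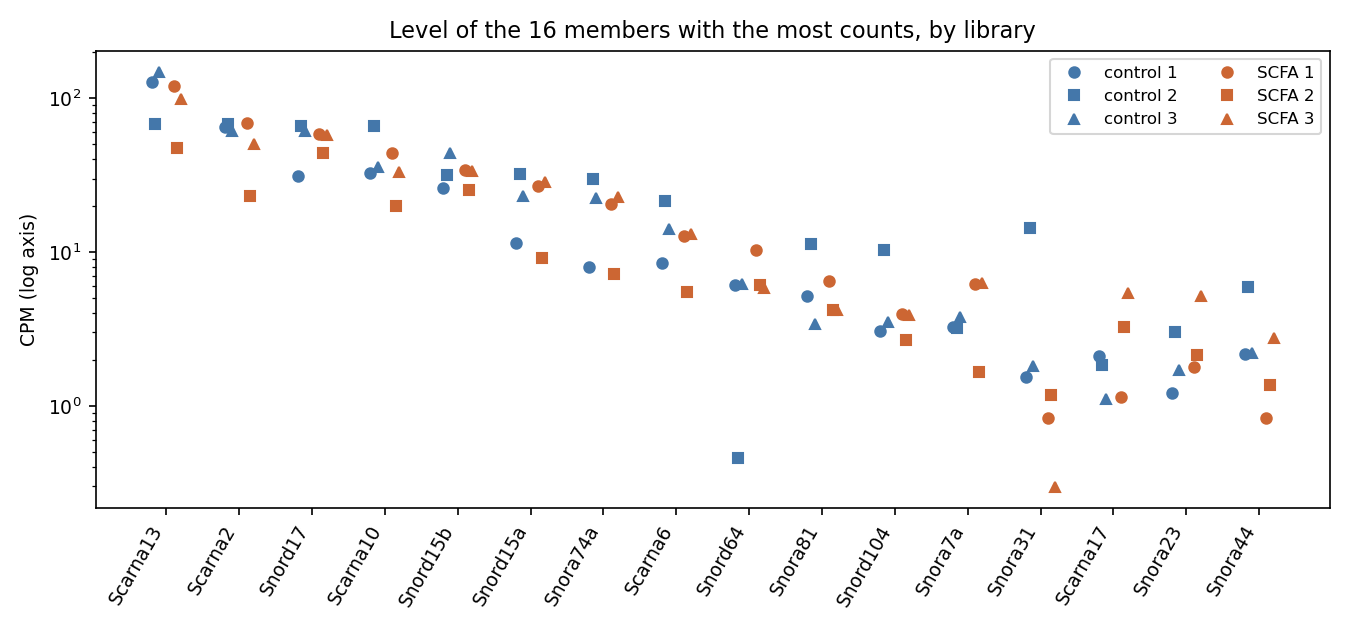
CPM of the 16 members with the most counts in each library (log axis), controls in blue and SCFA in orange, with marker shapes for replicates 1 to 3. Control 2 (blue square) is the lowest point of Snord64 at 0.461 CPM and the highest of Snora31 at 14.4 CPM.

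Of the 54 members that were too low for the test, 4 (7.41%) had groups that did not overlap in CPM, where 7.7% of the 4260 rows with at least 6 counts below the filter did not overlap. The 4 are named because of their values. Snora52 had 5, 30 and 13 counts in controls and 2, 0 and 0 with SCFA. Snord12 had 8, 7 and 18 against 0, 0 and 2, and Snora3 had 9, 10 and 4 against 0, 1 and 0. Snord68 had 0, 0 and 1 against 5, 2 and 4. These are single-digit counts in most libraries, and none of the 4 was given a fold change.

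Most members lay inside other genes. By the annotation, 44 lay in an intron of a gene on the same strand, 36 overlapped an exon of some transcript of it, and 7 had no such host. For 75 members the host was in the table, 60 hosts in all, of which 20 were ribosomal protein genes that held 27 members. Reads of a host exon and of a member inside it cannot be told apart here, because both lie on the same strand. A further 5 members overlap a gene on the other strand, some of them inside a host as well. For these the strand setting matters, and it was not given in the sources used here.

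For 10 members the member had more counts than its host. Scarna13 had 6799 counts over the 6 libraries and Snhg10 had 128. Snord17 had 3539 and Snx5 had 67, and Scarna6 had 807 and Atg16l1 had 47. These 3 lie in introns of their hosts. Scarna10 had 2482 counts against 1157 for Ncapd2.

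Member and host were both tested in 24 pairs over 21 hosts. Across these pairs Pearson's r between their log2 fold changes was 0.10 and Spearman's rho 0.15, as descriptions over pairs that share all 6 libraries. The sign was the same in 14 of 24, and the member's change was larger in size than the host's in 18. For the 11 pairs with the member in an intron, r was 0.02 and rho −0.07. None of the hosts passed the test, and their log2 fold changes ran from −0.83 to 1.18.

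**Figure D5:**
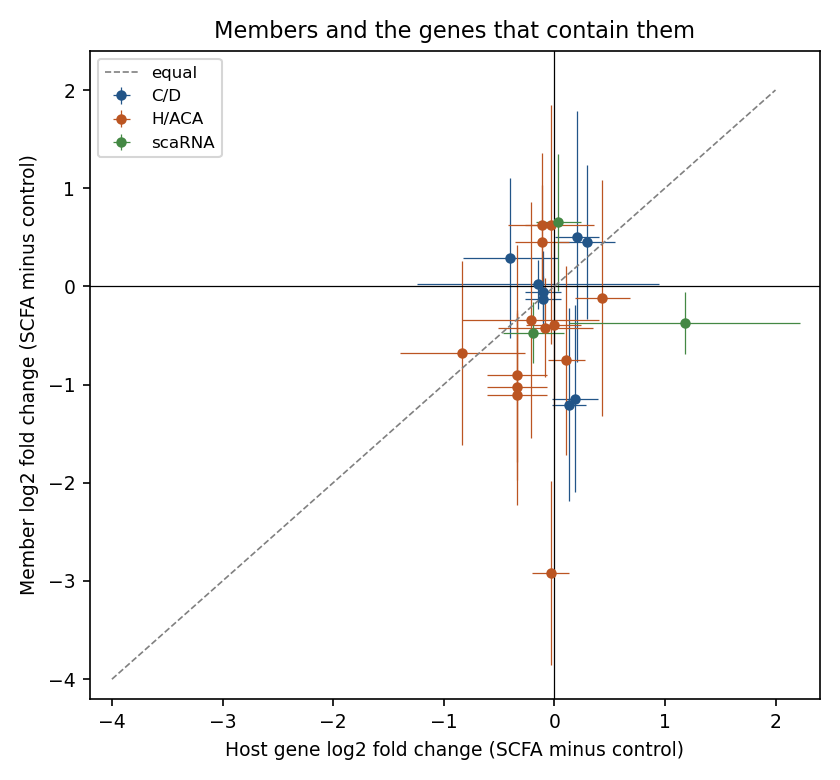
Log2 fold change of the member against that of its host gene for the 24 pairs tested, with bars of 1 SE on both axes, coloured by class, and a dashed line of equal change. Most hosts lie near 0 while members run from −2.92 for Snora31 to 0.65 for Scarna9.

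The proteins of the particles were tested beside their RNAs, and none of them passed the threshold in edgeR. An unadjusted edgeR p under 0.05 was seen for 1 of 4 C/D core proteins and 1 of 11 assembly factors tested. It was also seen for 3 of 20 proteins of ribosomal RNA processing, 0 of 4 H/ACA core and 0 of 7 Cajal body proteins. Over all genes tested the share was 5.76%. All 4 core proteins of C/D particles were tested, with a median log2 fold change of −0.03. Nop58, a scaffold protein of the particle, had −0.46 (SE 0.18, edgeR adjusted p = 0.864) and its partner Nop56 had 0.19 (SE 0.20). All 4 core proteins of H/ACA particles were tested, with a median of −0.17. Nhp2 had −0.43 (SE 0.24) and Gar1 −0.22 (SE 0.39).

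Of 14 assembly and transport factors, 11 were tested, with a median log2 fold change of 0.09. Nufip1, which brings core proteins onto C/D RNAs, had −0.58 (SE 0.26), and the helicase Ruvbl2 had 0.43 (SE 0.33). Of 10 Cajal body and SMN complex proteins, 7 were tested, with a median of −0.16. Gemin2 had −0.66 (SE 0.69), and Wrap53, which carries scaRNAs to the Cajal body, had −0.35 (SE 0.50). All 20 proteins of ribosomal RNA processing and the nucleolus were tested, with a median of −0.09. Among them, Emg1, a ribosomal RNA methyltransferase, had −0.87 (SE 0.28), and Polr1b, a subunit of RNA polymerase I, had 1.08 (SE 0.35), both at an edgeR adjusted p of 0.864.

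Of 23 noncoding host genes, 17 were tested with edgeR and 0 were called (0 at an unadjusted p under 0.05), with a median log2 fold change of −0.34 and 15 of the 17 below 0. Snhg6 had −0.70 (SE 0.37) and Snhg20 had −0.84 (SE 0.52). Their summed level was 771, 700.3 and 683 CPM in controls and 728, 477 and 647 CPM with SCFA, so the groups overlapped and SCFA 2 was lowest. Of 15 other structural RNAs, 6 were tested and 0 called (also 0 at an unadjusted p under 0.05), with a median of −0.21, among them Rmrp at −0.51 (SE 0.30) and the minor spliceosomal RNA Rnu11 at −0.29 (SE 0.39).

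Some markers of other cells and tissues differed in level between the groups. All 10 tested of 11 markers of glia and endothelium had log2 fold changes above 0, where 49.1% of all genes tested were below 0. None of them was called by edgeR, and 4 had an unadjusted p under 0.05, where the share over all genes was 5.76%. Their summed level was 528 to 595 CPM in controls against 727 to 1207 CPM with SCFA. All 3 pancreatic enzyme genes were called lower by edgeR, where 0.0752% of all genes tested were. They summed to 16.3 to 253 CPM in controls and 0.209 to 0.595 CPM with SCFA. Ttr, the choroid plexus marker, was too low for the test. It was at 0 in the controls and had 13, 28 and 2 counts with SCFA, or 0.149 to 1.93 CPM. The 2 counts in SCFA 3 lie within the 3 counts that a 0 allows. The part of these differences in the levels of snoRNAs and scaRNAs was not tested.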

How the data were processed

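RNA of the cortex of 6 mice was sequenced, 3 given SCFA and 3 salt-matched controls, each library taken as 1 mouse from the design text. The authors deposited raw counts per RefSeq transcript, made with CASAVA 1.8.2 and featureCounts on mm10, per the submitters' processing notes. The aligner, strand setting, annotation version and handling of multiply mapped reads were not given in the sources used here, and reads shared by near-identical copies are uncertain. The library kit is one sold for human FFPE RNA, per the labels' protocols. Of 34755 rows, 34424 (99.05%) were matched to symbols through RefSeq GRCm38.p6 and summed. Each member had 1 row, and 86 matched a GENCODE M21 transcript. Row lengths and coordinates come from RefSeq and may differ from the intervals the authors counted.

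Genes were tested with edgeR 4.0.16 (R 4.3.3): filterByExpr (minimum count 10, minimum total 15), TMM, quasi-likelihood F test without covariates, two-sided, Benjamini-Hochberg adjustment over 11969 genes, threshold 0.05. The largest row stayed in the library sizes. CPM use TMM-scaled library sizes, and sums over a class carry no test. On simulated data (11476 genes, 200 changed 4-fold) the test recovered 178 with 9 false calls. The changed genes were drawn only from genes above a set mean count that most members did not reach. This recovery therefore does not describe members with few counts. Alternatives were DESeq2 1.42.0, limma-voom 3.58.1, other scalings and filters, robust dispersion, structural RNA rows removed, the replicate number as a block, and libraries left out. 

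The members, gene lists and rules were chosen with earlier results of these data known. Named are the 12 C/D, 12 H/ACA and 4 scaRNA members with the most counts, the 4 smallest p in each direction, tested members of the imprinted and processing families, the 2 smallest p of each list, and hosts of named members; others are said to be chosen after their values were seen.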

Additional observations from a re-analysis of the deposited data

How the results depend on the processing

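Under every alternative run, 0 members were called in either direction at an adjusted p under 0.05, and with all other settings kept also 0 under 0.1. With no low-count filter Snora31 had an adjusted p of 0.0532, and 9 of the 87 members then tested had an unadjusted p under 0.05. No share over all genes at this unadjusted cut is given for the alternative fits. Such counts in them therefore cannot be read against a background. The difference in the C/D share ran from 1.69 to 6.72 percentage points when libraries were left out in turn. Left-out libraries moved the C/D median log2 fold change between −0.28 and 0.11 and the H/ACA median between −0.95 and 0.05, while with all libraries the H/ACA median was −0.20 over 31 members without the filter and −0.19 with limma-voom. The log2 ratio of the group means ran from −0.29 to 0.10 for C/D, from −0.72 to 0.02 for H/ACA and from −0.67 to −0.10 for scaRNAs when each library was left out. With total counts in place of TMM the all-gene median was 0.18 instead of 0.01, and these genes, all still below that median, lay on the other side of 0: Snord15b 0.044, Snord15a 0.15, Gar1 0.052, Rps3 0.043, Eif4a2 0.078, Rpl32 0.11, Tpt1 0.11, Ipo7 0.035, Rpl23 0.16. With limma-voom, reversed values were Snora61 1.36, Snora30 0.12, Snora28 0.040. Libraries that share a replicate number showed no common deviation from their group means (r of −0.0021, 0.0101 and −0.0052 across genes), so no pairing was assumed. The replicate number as a block gave 0 called members and 2 at an unadjusted p under 0.05, with an H/ACA median of −0.27, and reversed Snora61 1.49. The log2 fold changes that reversed when libraries were left out (each in turn, and control 2 with SCFA 2) ran as follows: Snord17 −0.25 to 0.34, Snord15b −0.28 to 0.10, Snord15a −0.36 to 0.68, Snord104 −0.96 to 0.25, Snord91a −0.40 to 1.17, Snord22 −0.20 to 0.66, Snord35a −0.071 to 1.75, Snora74a −0.63 to 0.52, Snora81 −0.73 to 0.30, Snora23 −0.0033 to 1.26, Snora21 −1.22 to 0.47, Snora61 −1.49 to 3.45, Snora30 −1.29 to 0.32, Snora28 −1.19 to 0.14, Scarna10 −0.75 to 0.18, Scarna6 −0.76 to 0.20, Gar1 −0.63 to 0.038, Gemin2 −1.25 to 0.68, Wrap53 −0.66 to 0.13, Rmrp −0.76 to 0.16, Rnu11 −0.72 to 0.092, Snx5 −0.81 to 0.47, Rps3 −0.21 to 0.063, Snhg1 −0.65 to 0.21, Eif4a2 −0.43 to 0.11, Rpl32 −0.25 to 0.070, Tpt1 −0.13 to 0.093, Rpl23 −0.16 to 0.25, Srcap −0.15 to 0.21, Cep295 −0.16 to 0.28. All of these genes were short of the threshold. Depth limits the rest: 54 of 87 members were too low to test, and the SE of those tested ran from 0.23 to 1.34 log2 units.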

Other observations

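The table also held 9 genes with a snoRNA biotype in RefSeq and at least 6 counts, whose symbols fall outside the naming pattern. Of these, 7 lie at chr12:109636012-109656415 (GRCm38), inside the noncoding gene Rian of the imprinted Dlk1-Dio3 region, which runs from 109603945 to 109661716. The highest of them were DQ267100 with 86, 42 and 60 counts in controls and 59, 49 and 66 with SCFA, and AF357359 with 53, 60 and 68 against 53, 53 and 68. In both, the groups overlapped in counts. AF357355 had 23, 16 and 18 counts against 16, 28 and 13, and AF357425 had 15, 6 and 16 against 33, 1 and 16. The host Rian had a log2 fold change of −0.20 (SE 0.15, edgeR adjusted p = 0.902). The 2 outside this region, AF357399 and Gm12238, had 32 and 38 counts in all.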
